A study of Mus musculus with 7 samples.

Results

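The 8 genes described here are the melanocyte pigment genes Pmel, Dct, Tyr, Tyrp1, Mlana, Oca2 and Slc45a2 together with Mitf, the transcription factor of the lineage. They are listed by name, from what is known of pigment synthesis, and the list was drawn up with earlier results of these data known. All 8 were found among the 55450 genes of the deposited count table. Dorsal skin of male, wild type C57BL/6 mice aged 24 months was sequenced in bulk, 1 library per mouse, after 5 days under a dressing with either 5 μM ABT-263, an inhibitor of Bcl-2 family proteins used as a senolytic, or the vehicle DMSO alone. The DMSO group held mice 480, 481, 482 and 483, and the ABT-263 group held mice 476, 477 and 478. The back of every mouse was clipped and treated with a hair removal lotion before the drug or vehicle went on. C57BL/6 mice are black, so the pigment pathway is intact in both groups. Between 20344364 and 43562330 read pairs were counted per library, and each ABT-263 library was larger than each DMSO library. Levels are given in CPM, read pair counts scaled to library size after TMM normalization (edgeR's scaling between libraries), and differences as log2 fold changes, ABT-263 minus DMSO, from edgeR's quasi-likelihood test.

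Melanin is made in melanosomes, organelles related to lysosomes, by a small set of proteins that hardly any other skin cell makes. Pmel forms the fibrils on which pigment is laid down, and Tyr, Tyrp1 and Dct are the related enzymes that carry tyrosine to eumelanin, with Tyr at the rate-limiting step. Mlana is a melanosome membrane protein that helps Pmel mature, and Oca2 and Slc45a2 are transport proteins that keep the melanosome near neutral, where Tyr is active. Mitf switches on most of these genes through an E-box in their promoters. In the haired trunk skin of the mouse most melanocytes sit in hair follicles, where pigment is made during anagen, the growth phase, and stops when the follicle regresses. A resting follicle keeps melanocyte stem cells and melanoblasts, cells in which Dct is a classical marker. The level of these genes in a piece of whole skin therefore follows the hair cycle as well as the number of melanocytes, and in bulk RNA fewer cells of a type and less RNA per cell cannot be told apart.

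The promoters of Tyr, Tyrp1 and Dct are shown because these 3 genes encode the melanin enzymes and share a sequence that the count data can be read against. The set of RefSeq promoter windows used here held 5 of the 8 genes (Dct, Tyr, Tyrp1, Oca2 and Mitf). Each window ran from 250 bases before to 50 bases after an annotated start on GRCm38.p6. Capitals mark the E-box CATGTG on either strand, which reads CACATG on the other strand.
Tyr, chr7:87493463-87493762, minus strand: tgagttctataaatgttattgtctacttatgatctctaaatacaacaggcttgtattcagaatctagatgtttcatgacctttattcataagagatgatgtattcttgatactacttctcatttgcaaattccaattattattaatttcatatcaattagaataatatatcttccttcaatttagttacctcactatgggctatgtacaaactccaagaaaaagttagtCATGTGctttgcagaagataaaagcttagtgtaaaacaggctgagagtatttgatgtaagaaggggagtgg
Tyrp1, chr4:80833963-80834262, plus strand: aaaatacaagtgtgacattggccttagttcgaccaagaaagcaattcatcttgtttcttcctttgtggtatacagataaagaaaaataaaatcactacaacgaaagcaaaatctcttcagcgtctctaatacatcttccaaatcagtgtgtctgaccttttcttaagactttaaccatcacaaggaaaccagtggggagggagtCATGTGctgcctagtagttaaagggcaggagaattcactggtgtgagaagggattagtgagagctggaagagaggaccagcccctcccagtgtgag
Dct, chr14:118052197-118052496, minus strand: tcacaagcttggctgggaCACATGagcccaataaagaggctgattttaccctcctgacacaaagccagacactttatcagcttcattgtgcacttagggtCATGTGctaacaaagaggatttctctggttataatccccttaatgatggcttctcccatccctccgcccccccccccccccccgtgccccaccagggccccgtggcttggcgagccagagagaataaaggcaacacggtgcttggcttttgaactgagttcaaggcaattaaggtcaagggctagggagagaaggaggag
The longest run of bases common to these 3 windows was GTCATGTGCT, 10 bases long, which holds the E-box and is known as the M-box of pigment genes. Its first base lay 23 bases upstream of the start in Tyr, 48 bases in Tyrp1 and 152 bases in Dct. Searched on both strands, CATGTG was present in 14.2% of the 32851 promoter windows of that set (27025 genes) and the 10-base run in 0.186% of them. The Dct window held a further CATGTG on the opposite strand, 232 bases upstream, and the Oca2 window held 1 on the opposite strand, 186 bases upstream. These letters were not in any of the 3 windows listed for Mitf. A match describes the letters in a window and does not show that Mitf was bound there.

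Dct, encoded on chromosome 14 from 118012790 to 118052244 (GENCODE M21, GRCm38, as for the positions that follow), had the most read pairs of the 8 genes over all libraries and was the only 1 of the 8 whose difference passed the threshold. It was at 67.8, 199, 92.9 and 58.1 CPM in DMSO mice 480, 481, 482 and 483, and at 3.86, 30.2 and 23.6 CPM in ABT-263 mice 476, 477 and 478. Every ABT-263 mouse thus lay below every DMSO mouse, with mouse 481 highest and mouse 476 lowest. The group means were 104 ± 64.6 CPM with DMSO and 19.2 ± 13.7 CPM with ABT-263 (SD, n = 4 and 3). After ABT-263 the level of Dct fell 5.41-fold, a log2 fold change of -2.44 with a 95% interval of -4.16 to -0.72 and a standard error of 0.74 (adjusted p = 0.0492 from edgeR over 17959 genes tested). The adjusted value lay just under the threshold of 0.05 and exceeded it with each of the 7 mice left out in turn, between 0.0624 and 0.104, while the log2 fold change stayed between -2.91 and -1.92. Calls over all genes tested also fell in each of these fits, from 4342 with all mice to between 1735 and 4169. DESeq2's Wald test gave the same size, -2.43, with an adjusted p of 0.000633, and an adjusted p of 0.00729 without mouse 481.

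Pmel, the fibril protein gene on chromosome 10 from 128704195 to 128720238, followed the same order at a lower level. Its values were 17.6, 74.8, 29.7 and 17.2 CPM in DMSO mice 480 to 483 and 2.15, 12.7 and 14.6 CPM in ABT-263 mice 476 to 478. The groups did not overlap, but the lowest DMSO value and the highest ABT-263 value lay close together. Means were 34.8 ± 27.3 CPM and 9.83 ± 6.72 CPM. The log2 fold change of -1.82 (standard error 0.77, 95% interval -3.60 to -0.03) did not pass in edgeR, with an adjusted p of 0.119, and passed in DESeq2's Wald test at 0.0211. Without mouse 481 it was -1.13 and passed in neither tool, with adjusted p = 0.243 in edgeR and 0.144 in DESeq2, and without mice 481 and 478 it was -1.51. Exons of Cdk2 and Dgka on the other strand cover 6.06% of the Pmel exon bases, and the counting is stated to use strand.

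Tyr, which starts the pathway by oxidizing tyrosine, and Tyrp1, which acts late in eumelanin synthesis, did not separate the groups. Tyr, on chromosome 7 from 87424771 to 87493512, was at 2.29, 7.37, 1.69 and 1.03 CPM in DMSO mice 480 to 483 and at 0.0358, 1.94 and 2.19 CPM in ABT-263 mice 476 to 478. In mouse 476 that value was 1 read pair, against 77 and 102 in the other ABT-263 mice. Tyrp1, on chromosome 4 from 80834123 to 80851719, was at 2.54, 13.1, 3.39 and 1.89 CPM in the DMSO mice and at 0.858, 2.75 and 5.41 CPM in the ABT-263 mice. ABT-263 mouse 478 therefore had more Tyrp1 than 3 of the 4 DMSO mice. The log2 fold changes were -1.13 for Tyr (95% interval -3.49 to 1.22, adjusted p = 0.441 from edgeR) and -0.79 for Tyrp1 (-2.69 to 1.11, adjusted p = 0.507). Both moved with the mice richest in hair keratins (given below). Without mouse 481 they were -0.25 for Tyr and 0.22 for Tyrp1, the latter with its sign turned, without mouse 478 they were -1.60 and -1.52, and without both mice -0.71 and -0.50, none of them past the threshold.

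**Figure D1:**
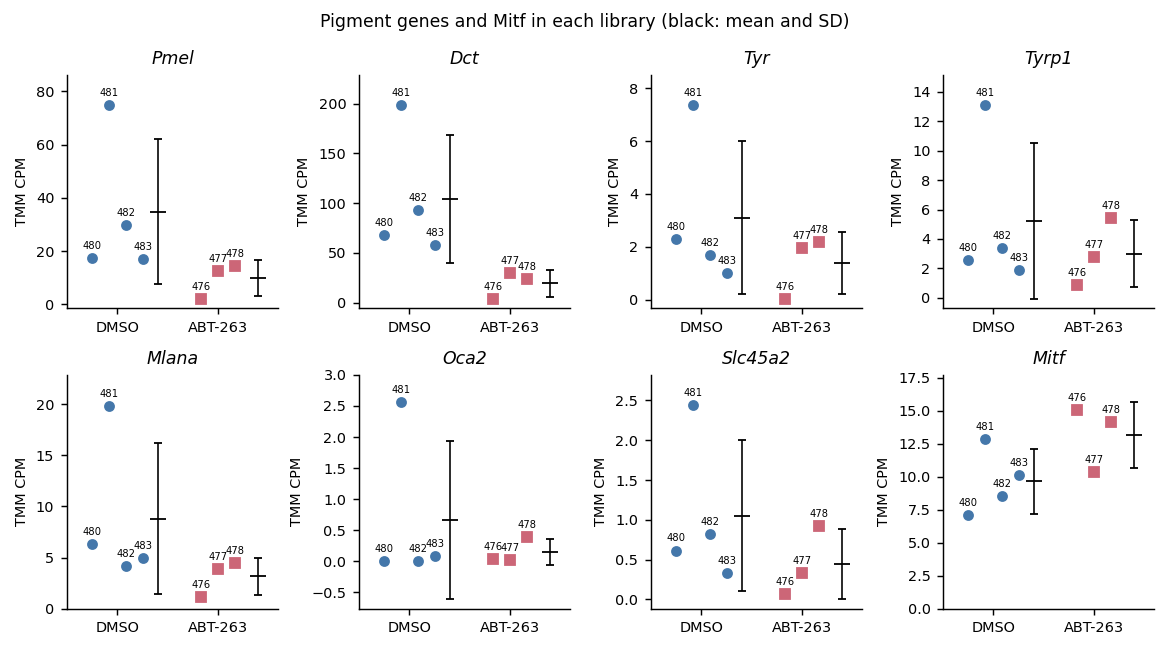
Level of each of the 8 genes in each library, in TMM CPM on a linear axis that differs between panels, with DMSO mice as circles, ABT-263 mice as squares, mouse numbers beside the points and the mean and SD of each group in black. Mouse 481 is the highest DMSO point in every panel, mouse 476 is the lowest ABT-263 point in 6 panels, and the groups separate in the panels of Pmel and Dct.

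Mlana, Slc45a2 and Oca2, which serve the melanosome membrane, also overlapped between groups. Mlana, on chromosome 19 from 29697824 to 29708634, was at 6.34, 19.8, 4.16 and 4.93 CPM in DMSO mice 480 to 483 and at 1.14, 3.88 and 4.51 CPM in ABT-263 mice 476 to 478, so that mouse 478 lay above the lowest DMSO mouse. Its log2 fold change was -1.46 (95% interval -3.04 to 0.11, adjusted p = 0.149 from edgeR) and -0.69 without mouse 481, -1.79 without mouse 478 and -1.01 without both. Slc45a2, on chromosome 15 from 11000721 to 11029233, was at 0.614, 2.44, 0.821 and 0.329 CPM in the DMSO mice and at 0.0715, 0.328 and 0.924 CPM in the ABT-263 mice. This was at most 58 read pairs in a library, and the log2 fold change of -1.20 (95% interval -3.22 to 0.82, adjusted p = 0.343) became -0.35 without mouse 481, -2.31 without mouse 478 and -1.46 without both.

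Oca2, on chromosome 7 from 56239760 to 56536518, was the gene closest to the limit of detection and did not pass edgeR's filter on low counts. It had 61 read pairs in DMSO mouse 481 and 18 in ABT-263 mouse 478, against 0, 0 and 2 in DMSO mice 480, 482 and 483 and 1 each in ABT-263 mice 476 and 477. In CPM these were 2.57 in mouse 481 and 0.387 in mouse 478, and at most 0.0822 elsewhere. The counts of 0 allow levels of up to 0.123 CPM in mouse 480 and 0.154 CPM in mouse 482 (3 counts of the library, counting error only). Oca2 was thus found above such limits in 2 libraries, 1 from each treatment, and these were the 2 libraries richest in hair keratins.

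Mitf, on chromosome 6 from 97807052 to 98021349, did not follow the pigment genes. It was at 7.12, 12.9, 8.52 and 10.1 CPM in DMSO mice 480 to 483 and at 15.1, 10.3 and 14.2 CPM in ABT-263 mice 476 to 478. Mouse 476, lowest for 6 pigment genes among the ABT-263 mice, had the highest Mitf of all 7 mice. The log2 fold change of 0.45 (standard error 0.24, 95% interval -0.10 to 0.99) did not pass, with an adjusted p of 0.194 from edgeR. Without mouse 481 every ABT-263 mouse lay above every DMSO mouse and the log2 fold change was 0.61, again short of the threshold (adjusted p = 0.0963). Mitf is transcribed from several starts in different cell types, among them melanocytes, mast cells and macrophages, and gene counts do not tell these starts apart.

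Read over the whole set, 1 of the 7 genes tested passed the threshold, where 24.2% of all genes tested passed in either direction, 11.7% lower and 12.4% higher after ABT-263. At an unadjusted p under 0.05 there were 2 of the 7 (Dct and Pmel), where 40.1% of all genes tested were. By groups that did not overlap, 2 of the 7 lay lower after ABT-263 and 0 higher, where 18.4% and 18.7% of all genes tested did, together 37.1%. The members' counts are therefore near the background of this comparison. Of the 7, the 6 pigment genes had negative and Mitf a positive log2 fold change, and the median was -1.20 against 0.00 over all genes tested. The median of the 7 was -0.35 without mouse 481, -1.79 without mouse 478 and -1.01 without both.

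**Figure D2:**
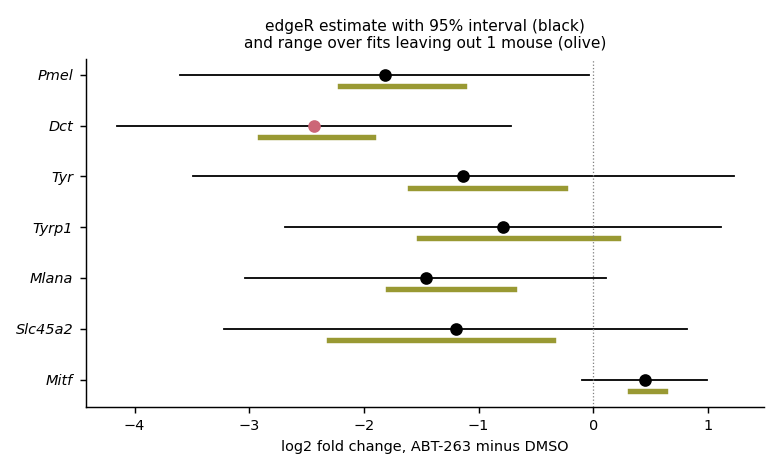
Log2 fold change, ABT-263 minus DMSO, of the 7 genes tested, with points for the edgeR estimate (red where adjusted p was under 0.05), black lines for 95% intervals and olive bars for the range over fits that leave out 1 mouse. The interval of Dct lies furthest below 0, from -4.16 to -0.72, and the olive bar of Tyrp1 crosses 0.

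Levels between genes were compared per kilobase of exon, from TMM CPM. In DMSO skin the median was highest for Dct at 13.6 CPM per kb and Pmel at 10.3 CPM per kb, followed by Mlana at 5.33, Mitf at 1.51 and Tyrp1 at 1.05 CPM per kb. Tyr at 0.280, Slc45a2 at 0.241 and Oca2 at 0.0104 CPM per kb closed the order. Dct stood first and Pmel next in each of the 4 DMSO mice, but their ranges (9.85 to 33.7 and 7.49 to 32.6 CPM per kb) overlapped widely, as did those of Tyr (0.144 to 1.04) and Slc45a2 (0.110 to 0.819). In ABT-263 skin the median was 5.55 CPM per kb for Pmel and 4.01 CPM per kb for Dct. Pmel led in mice 477 and 478, and in mouse 476 Mitf led at 2.43 CPM per kb, ahead of Mlana at 1.08, Pmel at 0.936 and Dct at 0.655 CPM per kb. With the longest transcript as the length, Dct stood ahead of Pmel in both groups.

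Levels of the pigment genes were also set against each other as ratios within a library, which do not depend on depth or scaling. Among the 15 pairs of the 6 better counted pigment genes, 5 had ratios that did not overlap between groups (3 lower and 2 higher after ABT-263), given as a description of values already seen. Of these 5, 4 hold Dct or Pmel, but so do most of the 15 pairs. Exactly 1 of Dct and Pmel is in 8 of the 15, and Pmel per Dct holds both. The pairs share genes, no share over all pairs of genes was computed, and 37.1% of single genes did not overlap. There were 26.7, 15.1, 27.4 and 30.7 Dct read pairs per Tyrp1 read pair in DMSO mice 480 to 483, and 4.50, 11.0 and 4.37 in ABT-263 mice 476 to 478. The geometric mean of this ratio was 4.03-fold lower after ABT-263. Pmel per Tyrp1 went from 6.94, 5.69, 8.77 and 9.09 to 2.50, 4.63 and 2.698, a geometric mean 2.38-fold lower. Dct per Mlana went from 10.7, 10.01, 22.3 and 11.8 to 3.38, 7.79 and 5.24. In the other direction, Pmel per Dct was 0.260, 0.376, 0.320 and 0.296 in the DMSO mice and 0.556, 0.421 and 0.618 in the ABT-263 mice, and Tyrp1 per Slc45a2 was 4.13, 5.38, 4.13 and 5.75 against 12.0, 8.38 and 5.86. In mouse 476 these ratios rest on 108 read pairs of Dct, 60 of Pmel, 32 of Mlana, 24 of Tyrp1 and 2 of Slc45a2. Dct was thus lower relative to Tyrp1 and Mlana in each of the 3 ABT-263 mice than in any DMSO mouse, but Dct per Tyr and Dct per Slc45a2 overlapped between groups. Dct per Tyr was 108 in mouse 476, on 1 read pair of Tyr, and 15.6 and 10.8 in mice 477 and 478. In the DMSO mice it was 27.0 to 56.6.

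**Figure D3:**
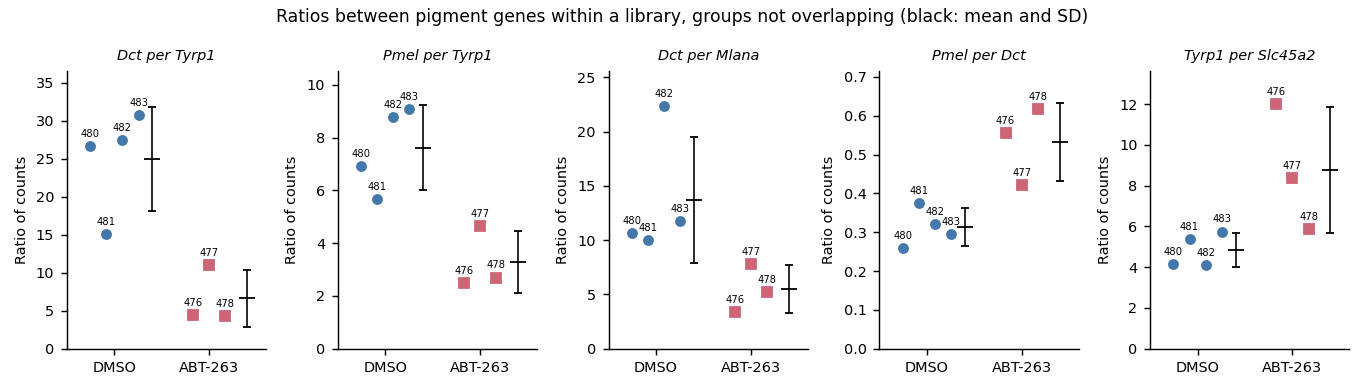
Ratio of read counts between 2 pigment genes in the same library for the 5 pairs whose groups did not overlap, with DMSO mice as circles, ABT-263 mice as squares and the mean and SD in black, on linear axes from 0. Dct per Tyrp1 lies between 15.1 and 30.7 in DMSO mice and between 4.37 and 11.0 in ABT-263 mice.

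The libraries differed in hair keratin transcripts, and this has to be read beside every value above. The anagen list held 22 keratins and regulators of the growing hair bulb, of which 21 were found, and its summed level was 129, 4383, 86.5 and 63.7 CPM in DMSO mice 480 to 483 and 46.8, 53.9 and 759 CPM in ABT-263 mice 476 to 478. Krt71, a keratin of the inner root sheath, was at 815 CPM in mouse 481 and at 175 CPM in mouse 478, and at most 3.59 CPM in the other 5 mice. Krt35, a hair shaft keratin, was at 195 and 24.3 CPM in those mice and at most 7.90 CPM elsewhere. Mouse 481 was thus highest and mouse 478 next for these keratins. Regulators of the bulb differed in the place of mouse 478. In it Shh was at 1.87 CPM against 2.79 to 4.26 CPM in DMSO mice 480, 482 and 483, and Hoxc13 at 5.52 CPM against 6.38 to 6.67 CPM. Msx2 was at 6.44 CPM, above those mice (5.70 to 6.33 CPM). Foxn1 at 7.02 CPM and Dlx3 at 21.2 CPM lay within the range of those mice. Tchh, a protein of the inner root sheath, was at 477 CPM in mouse 481, 126 CPM in mouse 478 and 30.8 CPM in mouse 476. Of the 17 genes of this list that were tested, 0 rose and 1 fell at an adjusted p under 0.05 from edgeR (Shh, a signal of the growing bulb, with a log2 fold change of -2.58 and an adjusted p of 0.0457, lost with any 1 mouse left out). At an unadjusted p under 0.05 there were 3 of the 17, where 40.1% of all genes tested were, and 24.2% of all genes tested passed the adjusted threshold. The median log2 fold change of the list was -2.19 with all mice and 1.35 without mouse 481, -6.34 without mouse 478 and -1.58 without both, so its size and, with mouse 478 kept, its direction moved with these mice. Lef1, a Wnt effector of the same tissue, was at 4.62, 20.8, 5.49 and 3.98 CPM in the DMSO mice and 1.39, 1.89 and 2.90 CPM in the ABT-263 mice (log2 fold change -2.07, adjusted p = 0.0557).

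The summed level of the 7 pigment genes was 97.2, 319, 133 and 83.5 CPM in DMSO mice 480 to 483 and 8.15, 51.9 and 51.7 CPM in ABT-263 mice 476 to 478. Mouse 481, highest in hair keratins, was highest here too. Mouse 478 had 759 CPM of anagen transcripts, more than DMSO mice 480, 482 and 483, and yet less summed pigment transcript than any of them, which followed from its Dct and Pmel, while its Tyrp1, Oca2 and Slc45a2 exceeded all 3 of those mice. Mouse 477 was close to mouse 478 in summed pigment genes (51.9 against 51.7 CPM) with little hair keratin (53.9 against 759 CPM). Dct and Pmel made up most of these sums (30.2 and 12.7 CPM in mouse 477, 23.6 and 14.6 CPM in mouse 478). Of the 7 genes, Dct was higher in mouse 477 and the others in mouse 478, among them Tyrp1 (5.41 against 2.75 CPM) and Slc45a2 (0.924 against 0.328 CPM). Over the other DMSO mice, mouse 481 was 2.93-fold higher in Dct, 4.25-fold in Pmel, 4.35-fold in Tyr, 5.18-fold in Tyrp1, 4.03-fold in Mlana, 3.98-fold in Slc45a2 and 1.51-fold in Mitf (against the median of the other 3). The part of the hair cycle in the treatment difference was not tested.

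**Figure D4:**
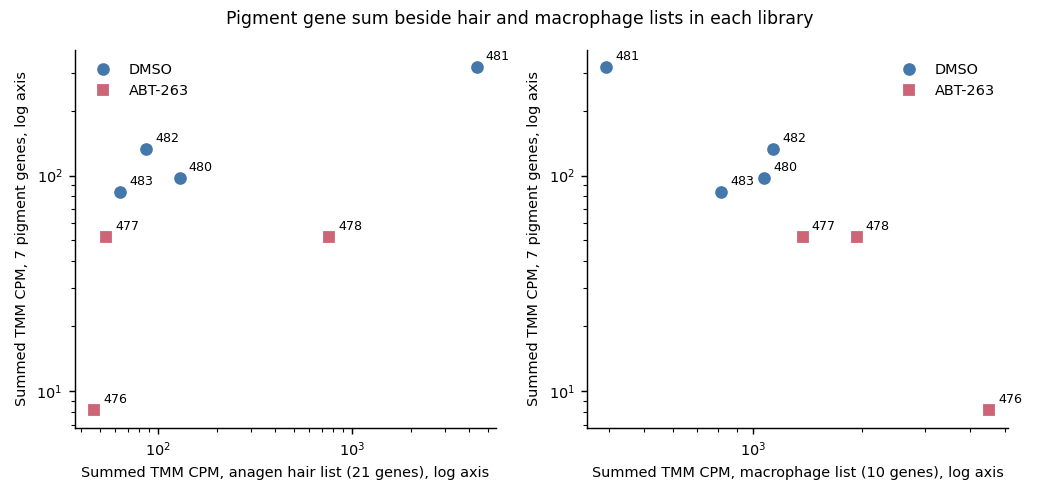
Summed TMM CPM of the 7 pigment genes in each library against the anagen hair list (left, 21 genes) and the macrophage list (right, 10 genes), all on log axes, with DMSO mice as circles and ABT-263 mice as squares. Mouse 481 stands at the top with 4383 CPM of hair transcripts, and mouse 476 at the bottom with 8.15 CPM of pigment transcripts and 4512 CPM of macrophage transcripts.

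Genes of follicle stem cells and the dermal papilla were listed apart from those of the growing bulb. Of the 14 genes in this list, all tested, 3 fell and 0 rose at an adjusted p under 0.05 from edgeR, where 11.7% and 12.4% of all genes tested did. The median log2 fold change was -0.42, or -0.18 without mouse 481. Mouse 481 was the highest DMSO mouse here too for Krt15 (2626 CPM) and for the dermal papilla gene Corin (3.497 CPM, against 0.0818 to 0.493 CPM in the other DMSO mice). It was the lowest DMSO mouse for Cd34 (92.6 CPM, against 130 to 138 CPM) and Crabp1 (48.9 CPM, against 49.7 to 127 CPM). Lhx2, Hhip, Alpl and Wif1 were also highest in mouse 481 among the DMSO mice. For the remaining genes of the list (Lgr5, Nfatc1, Sox9, Fgf18, Bmp6 and Sox2) mouse 481 was neither the highest nor the lowest. Sox9, a stem cell regulator of the follicle, had a mean of 143 ± 25.3 CPM in DMSO skin (SD, n = 4) and 58.6 ± 17.1 CPM in ABT-263 skin (SD, n = 3). Its log2 fold change of -1.29 (adjusted p = 0.0102) passed with each mouse left out. Krt15, a keratin of the bulge where melanocyte stem cells also reside, changed by -1.45 on the log2 scale (adjusted p = 0.0312), and Lhx2, a stem cell transcription factor, by -1.19 (adjusted p = 0.0408). Both passed in 2 of the 7 fits with a mouse left out, and were lost without mouse 481, 482, 483 or 478, Krt15 also without mouse 476 and Lhx2 also without mouse 480. The summed level of the list was between 1565 and 3025 CPM in DMSO mice and between 698 and 1322 CPM in ABT-263 mice, lowest in mouse 476. Krt15 made up most of this sum, with 2626 of the 3025 CPM in mouse 481 and 407 of the 698 CPM in mouse 476.

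Of 25 other genes of melanosome assembly and transport, 24 were tested, and 6 rose and 0 fell at an adjusted p under 0.05 from edgeR, where 24.2% of all genes tested passed in either direction. The log2 fold change was positive for 17 and negative for 7 of the 24, with a median of 0.25. Those that rose were Tpcn2 (1.21 on the log2 scale), a channel of melanosomes and endolysosomes, Rab32 (1.04), which brings cargo to melanosomes and other lysosome-related organelles, Myo5a (0.61), the motor that carries melanosomes along actin, Hps3 (0.96), Hps6 (0.57) and Dtnbp1 (0.46), which are subunits of the BLOC trafficking complexes. With each mouse left out in turn, Tpcn2 passed in 7, Rab32 and Myo5a in 6, Hps3 in 3, Dtnbp1 in 1 and Hps6 in 0 of the 7 fits. Many cell types use these genes, and the macrophage markers given below rose in the same mice, whose part in these changes was not tested. The list members that are largely restricted to pigment cells had values ordered as in the pigment genes. Slc24a5, an exchanger of the melanosome pathway, was at 0.737, 6.11, 2.00 and 0.575 CPM in the DMSO mice and at 0.0358, 0.756 and 0.967 CPM in the ABT-263 mice (log2 fold change -1.96, adjusted p = 0.204). Trpm1, a melanocyte channel and Mitf target, was at 4.296, 18.1, 4.62 and 3.45 CPM against 0.644, 2.77 and 3.996 CPM (log2 fold change -1.61, adjusted p = 0.164). Gpr143, the ocular albinism receptor of melanosomes, was too low to be tested and, like Oca2, had reads in mouse 481 (0.548 CPM) and mouse 478 (0.258 CPM), and 0 in the other 5 libraries.

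Among 20 regulators and signals of the melanocyte lineage, all tested, 3 rose and 3 fell at an adjusted p under 0.05 from edgeR. Over all genes tested 12.4% rose and 11.7% fell, so these counts are near the background. The median log2 fold change of the list was -0.15. Pax3, which acts with Sox10 upstream of Mitf and marks melanoblasts, was at 1.15, 2.53, 2.05 and 1.40 CPM in the DMSO mice and at 0.179, 0.479 and 0.795 CPM in the ABT-263 mice. Its groups did not overlap, and with a log2 fold change of -1.83 and a standard error of 0.53 it fell at an adjusted p of 0.0394, a call that held without mouse 480 or 478 and was lost without any other. Sox10, shared by melanocytes and Schwann cells, was at 3.15, 4.38, 3.95 and 6.12 CPM against 3.15, 3.25 and 3.27 CPM (log2 fold change -0.45, adjusted p = 0.237). The other falls were of Bcl2, the survival gene that melanocyte stem cells depend on and a target of the drug's protein class, with a log2 fold change of -1.47 (adjusted p = 0.00673, passing with each mouse left out), and of Tfeb, a relative of Mitf, at -0.48 (adjusted p = 0.0417, passing in 2 of the 7 fits with a mouse left out).

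The receptors and signals of the lineage differed in sign. Mc1r, the melanocortin receptor that drives eumelanin, was at 1.84, 11.1, 2.31 and 1.19 CPM in the DMSO mice and at 0.465, 0.958 and 1.42 CPM in the ABT-263 mice, with a log2 fold change of -2.10 (adjusted p = 0.107) that was -0.89 without mouse 481. Kit, the receptor for stem cell factor and present on mast cells too, was at 0.30 on the log2 scale (adjusted p = 0.602), and its ligand Kitl at 0.32 (adjusted p = 0.260). Ednrb, the endothelin receptor that vessels, nerve and melanocytes share, rose by 0.88 on the log2 scale (adjusted p = 0.0445), although DMSO mouse 482 at 30.6 CPM lay above ABT-263 mouse 477 at 30.1 CPM, and it passed in 2 of the 7 fits with a mouse left out. Asip, the agouti signal that opposes Mc1r, was at 0.42 on the log2 scale (adjusted p = 0.392). The remaining rises were of Mgrn1 (0.74 on the log2 scale, adjusted p = 0.0177, lost without mouse 482, 483 or 478), the ubiquitin ligase of the mahoganoid coat colour mutant, and Tfec (2.99, adjusted p = 0.0235, lost without mouse 483 or 476, the lowest value being 1.87), a relative of Mitf known from macrophages, which reached 11.7 CPM in mouse 476.

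**Figure D5:**
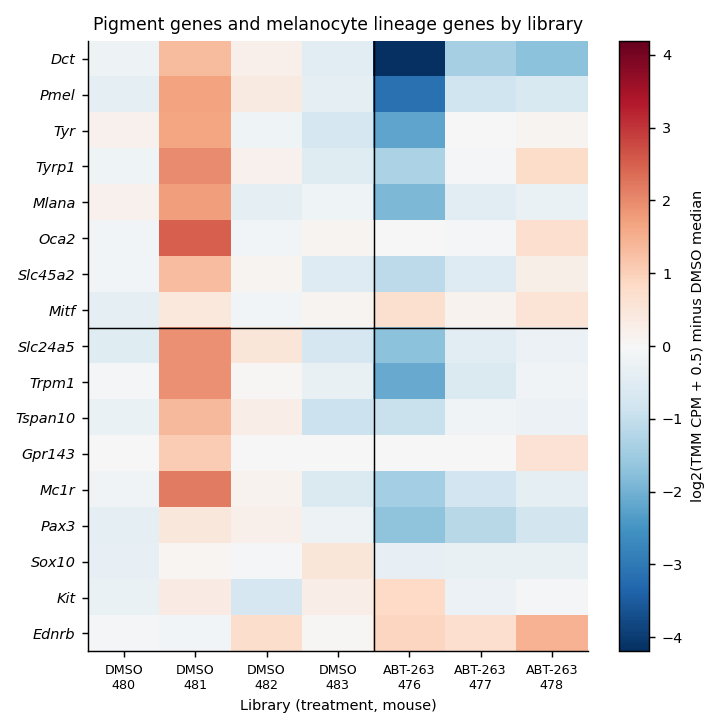
Level of the 8 genes (above the line) and of 9 lineage and melanosome genes (below it) in each library, as log2(TMM CPM + 0.5) minus the median of the DMSO mice, red above and blue below it. Mouse 481 is red for the pigment genes, Mc1r, Slc24a5 and Trpm1, mouse 476 is blue for most of them, and Mitf, Kit and Ednrb do not share this pattern.

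Cells that share genes with melanocytes were followed by marker lists. Their counts stand beside 12.4% of all genes tested that rose and 11.7% that fell at an adjusted p under 0.05 from edgeR. Of the 8 mast cell markers, all tested, 2 rose (Hdc and Ms4a2, in 6 and 2 of the 7 fits with a mouse left out) and 0 fell at an adjusted p under 0.05 from edgeR. The log2 fold change was positive for 7 of them, with Mcpt4 at 0.35 (adjusted p = 0.603), and negative for Mrgprb2 (-1.78, adjusted p = 0.0844). Their summed level was 61.5 to 165 CPM in DMSO mice and 125 to 448 CPM in ABT-263 mice. It was highest in mouse 476, where Hdc alone was at 231 CPM. Of the 10 macrophage markers, 7 rose and 0 fell, led by Cd14 at 3.67 on the log2 scale (adjusted p = 0.0170), which passed with each mouse left out. Csf1r and Lyz2 passed in 6 of those 7 fits, Cd68, Mrc1 and Fcgr1 in 2 and Adgre1 in 1. The macrophage sum was 1074, 392, 1139 and 816 CPM in DMSO mice 480 to 483 and 4512, 1373 and 1937 CPM in ABT-263 mice 476 to 478. Mouse 476, lowest in pigment genes, was thus highest in macrophage genes and mouse 481 the reverse, and the part of these cells in the values of Mitf, Tfec and the pigment genes was not tested. Of the 7 interfollicular keratinocyte markers 1 (Itga6) rose, and of the 5 fibroblast markers 3 rose (Lum, Pdgfra and Col1a2), with 0 falls in either list. Itga6 and Col1a2 passed in 2 of the 7 fits with a mouse left out, and Lum and Pdgfra in 7. No marker of these lists was at 0 in every library, and keratinocyte sums of 18211 to 50995 CPM and fibroblast sums of 3692 to 8073 CPM were those of skin.

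Among the genes outside the lists with the pattern most like the 7 pigment genes were Ctnnd2, Ngfr, Mycl and Sesn3. Likeness was the Pearson correlation over the 7 libraries of log2(TMM CPM + 0.5) with the mean of the pigment genes on that scale, among 15478 tested genes with a mean of at least 1 CPM. It was 0.997 for Ctnnd2 and 0.987 for Ngfr, and 0.984 and 0.977 for Mycl and Sesn3, given as a description. The libraries differed in hair content and treatment, and the part of these in the correlations was not tested. Ngfr, the nerve growth factor receptor of nerve and neural crest cells, was at 7.08, 20.2, 8.32 and 6.74 CPM in the DMSO mice and at 3.00, 5.90 and 6.27 CPM in the ABT-263 mice. None of these 4 passed the threshold between treatments, with adjusted p from 0.124 to 0.231 in edgeR. On the same scale the correlation with that mean was between 0.77 and 0.98 for the 7 pigment genes, which it includes, and -0.17 for Mitf.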

How the data were processed

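RNA from whole dorsal skin of 7 mice was sequenced. The authors aligned reads to mm10 with STAR 2.7.9a and ran featureCounts (Subread 1.6.2) against an Ensembl annotation, keeping unique, properly paired, same-strand alignments and dropping mitochondrial genes. The deposited values are raw counts. The authors' variance-stabilized table was not used. Symbols matched 55104 of 55450 identifiers, and lengths and positions came from GENCODE M21 (GRCm38, the mm10 assembly), which held 55190. One anagen gene had no entry under its symbol and was not analysed here.

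Genes were filtered with filterByExpr, normalized by TMM and compared between treatments with edgeR 4.0.16's two-sided robust quasi-likelihood test (R 4.3.3). P-values were Benjamini-Hochberg adjusted over 17959 tested genes, with a threshold of 0.05. The procedure was tested on simulated data. The standard error is the log2 fold change over the square root of F. Mouse numbers are not shared between treatments, so no pairing was possible, and the labels name no batch. Alternatives were DESeq2 1.42.0, its size factors, no filter, protein-coding genes only, leaving out each mouse, and leaving out DMSO 481 with ABT-263 478. Named genes were the 8 members, list genes past the threshold (at most 6 per list), set defining genes, and the 5 most alike, of which some items are not reported here. The members and lists were chosen with earlier results of these data known. Depth limits Oca2, Gpr143 and Slc45a2 most.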

Additional observations from a re-analysis of the deposited data

Results flagged for a closer look

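In 18 measures over the 4 DMSO mice, the gap between the outermost mouse and its nearest neighbour was divided by the whole range and set against Dixon's 95% critical value. It was larger in 6 of them, where chance would give about 0.9. Mouse 481 was the outermost mouse, above the others, in Tyrp1 (0.867), Mlana (0.861) and Oca2 (0.968), in the summed lineage list (0.910) and in the summed anagen hair list (0.985). In the lineage list the difference was small, 404 CPM against 359 to 363 CPM, and the ratio was large because the other DMSO mice lay close together. These gap ratios of Pmel, Dct, Tyr and Slc45a2, all with mouse 481 as the far point, lay between 0.753 and 0.801 and did not exceed the limit. Mouse 480 stood above the others in the summed mast cell list (0.841). These measures share mice and genes and are not independent.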

How the results depend on the processing

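With each mouse left out in turn, 0 members passed the adjusted threshold in any of the 7 edgeR fits, against 1 with all mice, and 1 or 2 members had an unadjusted p under 0.05. Fewer genes passed over all genes in each of these fits too. With all mice 4342 of 17959 passed, and the fits ranged from 1735 of 18481 without mouse 478 to 4169 of 17738 without mouse 480. Lost calls in the members and lists therefore stand beside calls lost over all genes. The log2 fold change of Dct then lay between -2.91 and -1.92, and that of Tyrp1 between -1.52 and 0.22, turning sign without DMSO mouse 481 with mouse 478 kept (also in DESeq2, 0.21), and at -0.50 without both. Counts past the threshold ranged from 2 to 6 in the melanosome list, 1 to 5 in the lineage list, 0 to 1 in the anagen list and 1 to 4 in the follicle stem cell list. The 1 anagen gene, which passed without mouse 481, was higher after ABT-263, while the 1 with all mice was lower. DESeq2's Wald test passed 2 members (Dct and Pmel, the latter at -1.81) and 3 of the 5 anagen genes it gave an adjusted p, where 5698 of 21253 genes passed. Without mouse 481, chosen after seeing the data, it passed 1 member and 2 of 6 such anagen genes, where 4578 of 19316 genes passed. Without mice 481 and 478 it passed 1 member and 9 of 14 such anagen genes, where 2923 of 18389 genes passed. Of the 2 anagen genes 1 was higher and 1 lower after ABT-263, and of the 9, 1 was higher and 8 were lower. With no filter on low counts edgeR passed 0 members, with Dct at -2.40 (adjusted p = 0.171), and 0 anagen genes. Without both mice 481 and 478, edgeR passed 0 of all genes and so 0 in each list, with Dct at -2.09 (adjusted p = 0.162) and 1 member at an unadjusted p under 0.05, while DESeq2 passed 2923 genes. The cause of these differences was not tested. With DESeq2's size factors or protein-coding genes only, the members' count was 1 again. No paired analysis was possible because the treatments share no mouse number. The smallest libraries limit Oca2 to levels above 0.154 CPM.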
